A study of Mus musculus with 40 samples.

Results

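Collagens are the triple-helical proteins of the extracellular matrix, and each collagen gene encodes 1 of the chains that wind into such a helix. The collagen genes described here are all symbols of the count table made of Col, a number, the letter a and a second number, which gave 44 genes of the 53863 symbols in the table. They comprise 11 fibrillar genes, 6 basement membrane genes (type IV), 6 beaded filament genes (type VI), 9 genes of collagens that attach to fibrils (FACIT), 2 multiplexins, 3 hexagonal network genes, 1 anchoring fibril gene, 4 transmembrane collagens and 2 others, and they lie on 15 chromosomes. RNA was sequenced from wild-type adult C57BL/6 mice that had been housed at 22 °C with a 12 h light cycle and a standard diet and then spent 24 h either in the cold, at 4 °C, or at a thermoneutral 30 °C. At thermoneutrality a mouse spends no extra energy on keeping warm, so the warm group serves as the reference for the cold group. Both exposures differ from the housing temperature and no group stayed at 22 °C. A response to cold and a response to warming therefore cannot be told apart, and rise and fall below mean cold against thermoneutral. From each exposure 5 libraries were made of each of 4 tissues, giving 40 libraries in 8 groups: liver, the interscapular brown fat (BAT), and the white fat of the inguinal (iWAT) and epididymal (eWAT) depots. Sex and exact age are not given in the sources used here, and the labels do not say that libraries of a group come from separate mice, so p-values measure the spread between these libraries.

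Fibrillar collagens such as types I, III and V are secreted mainly by fibroblasts and form the tensile fibres of connective tissue. Type IV collagen forms the sheet-like network of basement membranes, which surround every fat cell and line blood vessels. In adipose tissue, type VI collagen filaments link the basement membrane to the fibres around it, and in liver sinusoids the basement membrane is sparse.

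Levels are given as CPM, a gene's counts relative to the library total, scaled for composition with edgeR's TMM factors over all 40 libraries, in the order of library numbers 1 to 5, and an order of level between genes is given per kb of exon length. Shares of summed counts and ratios of counts between genes are not corrected for length and are used only to compare libraries with each other. A change is the log2 fold change of cold against thermoneutral ± its standard error from edgeR's quasi-likelihood test, and a gene is called when its p-value, adjusted by the Benjamini-Hochberg method over all genes tested in that comparison, is under 0.05. Of the 44 genes, 41 passed the filter on low counts in at least 1 tissue and 25 passed it in all 4 tissues. Col9a1, Col9a2 and Col19a1 passed it in none. A gene that is low in both exposures of a tissue does not enter that tissue's counts, so the counts below are over the genes tested and not over all 44.

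Library totals ran from 46508261 to 86681722 counts. The labelled tissues carried their defining transcripts: the summed level of 10 adipocyte markers was 12143 to 14461 CPM in thermoneutral BAT, and that of 6 hepatocyte markers was 178941 to 200712 CPM in thermoneutral liver. Some libraries stood apart in markers of neighbouring tissue. The summed epididymis markers reached 0.264 to 2180.1 CPM over the cold eWAT libraries, with libraries 1 and 4 at the top, and 0.594 to 34.4 CPM over the thermoneutral ones. The summed skeletal muscle markers ranged over 3.05 to 11595 CPM in thermoneutral iWAT, where library 3 was highest, and over 2.26 to 2464 CPM in cold iWAT, where library 5 was highest. Hepatocyte markers reached 6.33 to 2046 CPM in thermoneutral eWAT, with library 2 at the top. In BAT the summed skeletal muscle markers ranged over 161 to 4921 CPM in thermoneutral and 6.38 to 3563 CPM in cold libraries. Results for iWAT and eWAT are given below also without the libraries that stood apart in muscle or epididymis markers. For BAT no such setting was run, only each library left out in turn.

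The genes for the main chains of type IV collagen, Col4a1 and Col4a2, lie head to head on mouse chromosome 8, and their RefSeq starts (GRCm38.p6) at positions 11312826 and 11312805 are 21 bases apart. The promoter windows of both, from 250 bases before to 50 bases after the start, are shown first because these are the collagen transcripts that rose most in level in cold BAT. The windows of Col1a2 and Col3a1, main chains of types I and III that fell there, follow for contrast. Each is printed 5′ to 3′ on the gene's own strand, which is minus for Col4a1 at chr8:11312777-11313076 and plus for Col4a2 at chr8:11312555-11312854, Col1a2 at chr6:4505368-4505667 and Col3a1 at chr1:45311288-45311587. Capitals in Col4a1 and Col4a2 mark the 78 bases that both windows share, read on opposite strands, and capitals in Col1a2 and Col3a1 mark TATAAA or CCAAT or their reverse complements.
Col4a1: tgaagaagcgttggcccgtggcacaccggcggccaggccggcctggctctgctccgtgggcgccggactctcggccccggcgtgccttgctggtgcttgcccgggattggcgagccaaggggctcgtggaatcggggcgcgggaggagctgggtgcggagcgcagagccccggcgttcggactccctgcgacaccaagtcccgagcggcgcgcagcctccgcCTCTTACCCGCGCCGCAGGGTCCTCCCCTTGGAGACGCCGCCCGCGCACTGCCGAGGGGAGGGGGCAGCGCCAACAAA
Col4a2: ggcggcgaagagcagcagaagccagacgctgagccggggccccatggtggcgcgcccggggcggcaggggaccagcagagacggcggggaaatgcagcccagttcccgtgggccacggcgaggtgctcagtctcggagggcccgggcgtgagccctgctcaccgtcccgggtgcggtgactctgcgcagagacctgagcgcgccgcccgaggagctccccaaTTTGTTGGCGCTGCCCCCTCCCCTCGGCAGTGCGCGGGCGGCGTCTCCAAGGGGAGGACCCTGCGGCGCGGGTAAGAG
Col1a2: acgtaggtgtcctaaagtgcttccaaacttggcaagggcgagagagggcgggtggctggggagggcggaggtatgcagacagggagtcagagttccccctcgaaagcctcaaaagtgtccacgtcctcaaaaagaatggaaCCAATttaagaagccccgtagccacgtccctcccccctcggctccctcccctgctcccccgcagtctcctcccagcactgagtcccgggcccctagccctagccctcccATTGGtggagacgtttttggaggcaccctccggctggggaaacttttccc
Col3a1: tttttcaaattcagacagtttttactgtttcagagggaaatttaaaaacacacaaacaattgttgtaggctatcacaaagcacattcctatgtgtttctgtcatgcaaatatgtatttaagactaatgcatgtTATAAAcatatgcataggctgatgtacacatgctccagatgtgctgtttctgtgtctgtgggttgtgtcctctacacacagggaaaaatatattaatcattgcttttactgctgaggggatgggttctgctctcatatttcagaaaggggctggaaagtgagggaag

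Other type IV genes are paired in the same way: Col4a3 and Col4a4 lie head to head on chromosome 1, and Col4a5 and Col4a6 on chromosome X with starts 1343 bases apart. In the GENCODE annotation (GRCm38) Col4a1 spans 11198423 to 11312826 and Col4a2 11312805 to 11449287 on chromosome 8, and Col3a1 spans 45311538 to 45349706 on chromosome 1 next to Col5a2 at 45374321 to 45503282. Col1a1 lies at 94936224 to 94953042 on chromosome 11 and Col1a2 at 4504814 to 4541544 on chromosome 6. Col6a1 lies at 76708792 to 76726168 and Col6a2 at 76595762 to 76623630, both on chromosome 10 with Col18a1 at 77052178 to 77166548. The printed windows differed in base composition. GC content was 74.0% for Col4a1 and 73.7% for Col4a2, with 37 and 33 CpG dinucleotides, while it was 61.0% with 13 CpG for Col1a2 and 37.7% with 0 CpG for Col3a1. The median over 32851 RefSeq windows of the same length was 52.7% GC and 7 CpG. At least as many CpG as in Col4a1 stood in 5.58% of windows, and as many as in Col4a2 in 8.56%. On either strand, the letters TATAAA were found in 13.6% of all windows and in those of 5 of the 35 collagen genes with a window. CCAAT was found in 37.4% of all windows and for 13 of the 35 genes, and GGGCGG in 35.7% and for 22 of the 35. No motif contains another, and a match describes letters only.

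In BAT the chains of the general basement membrane network rose with cold, and most fibrillar and all tested type VI chains fell. Of 30 collagen genes tested, 5 were called higher and 18 lower. Among all 15288 genes that entered the test the calls came to 60.2%, with 30.2% higher and 30.0% lower. The median change was -0.96 over the collagen genes tested and -0.04 over all genes. By class, 2 of 5 tested basement membrane genes were higher and 2 lower, 1 of 8 fibrillar genes was higher and 5 lower, and 4 of 4 beaded filament genes were lower. Of FACIT genes 3 of 4 were lower, of transmembrane collagens 1 of 3 was higher and 2 lower, and of multiplexins 1 of 2 was lower. Of hexagonal network genes 1 of 2 was higher, Col10a1, which entered the test only through its cold libraries. The libraries of cold and thermoneutral BAT did not overlap for 16 of the 30 genes, against 46.4% of all genes tested. In bulk tissue, fewer cells of a type and less RNA per cell cannot be told apart.

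**Figure D1:**
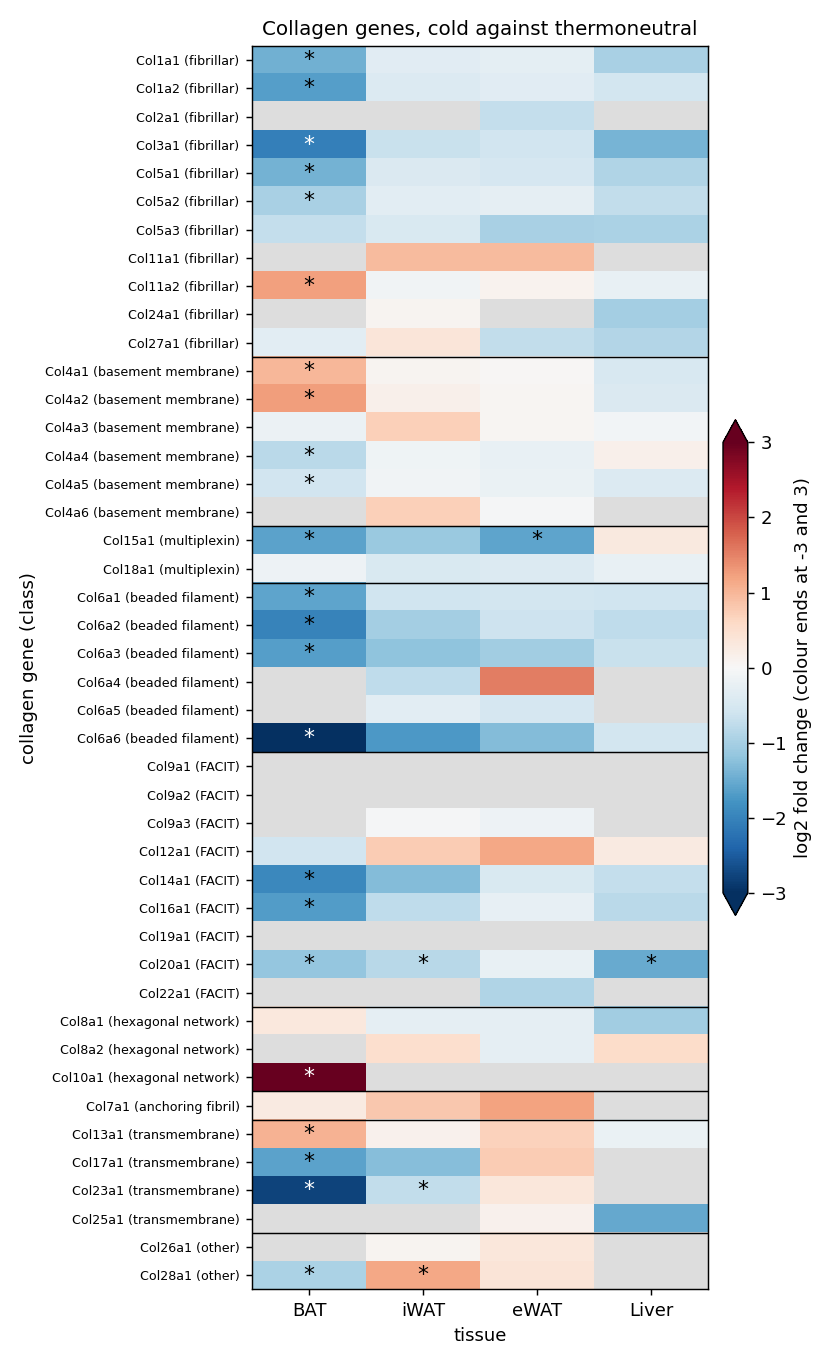
Log2 fold change of cold against thermoneutral for the 44 collagen genes (rows, grouped by class) in the 4 tissues (columns), with colour ending at -3 and 3. An asterisk marks a gene called by edgeR's quasi-likelihood test at adjusted p under 0.05 and grey marks a gene not tested in that tissue; most asterisks stand in the BAT column, 23 in all, against 3 in iWAT, 1 in eWAT and 1 in liver.

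Col4a1 and Col4a2 encode the α1 and α2 chains, which assemble together into the type IV network found in nearly all basement membranes. Col4a1 had 683, 651, 589, 727 and 464 CPM in the thermoneutral BAT libraries and 1356, 1036, 1192, 1173 and 1356 CPM in the cold ones. Every cold library was above every thermoneutral library, and the change was 1.0 ± 0.13 (adjusted p = 4.46e-05, edgeR's quasi-likelihood test). Col4a2 had 471, 449, 405, 505 and 324 CPM in thermoneutral and 979.5, 855, 978, 1052 and 1182 CPM in cold BAT, again with no overlap, and rose by 1.25 ± 0.13 (adjusted p = 8.16e-06). The ratio of Col4a1 to Col4a2 counts was 1.45 ± 0.00872 (SD, n = 5) in thermoneutral BAT, from 1.43 to 1.46, and 1.22 ± 0.104 in cold BAT, from 1.12 to 1.38. The ratio thus moved towards Col4a2 in every cold library. The kit does not keep the strand of the RNA and the annotated transcripts overlap by a short stretch at their starts, where reads of both cannot be told apart. The same limit holds where other genes annotated on the opposite strand share exon sequence, among others with Col4a2, Col5a1, Col6a6 and Col15a1.

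Of the minor type IV chains, none was called higher. Col4a3, Col4a4 and Col4a5 encode the α3, α4 and α5 chains, known from the basement membranes of kidney, lung and ear. Col4a4 had 3.94, 3.23, 2.22, 2.40 and 2.06 CPM in thermoneutral and 1.78, 2.23, 1.35, 1.43 and 1.01 CPM in cold BAT, with overlapping groups, and changed by -0.81 ± 0.25 (adjusted p = 0.0159). Col4a5 had 6.94, 5.71, 4.22, 4.72 and 2.91 CPM and 3.62, 3.47, 3.40, 3.34 and 2.39 CPM, also overlapping, and changed by -0.57 ± 0.22 (adjusted p = 0.0392). Col4a5 is a weak call, since it was lost in 10 of 16 alternative settings. Col4a3, at 1.31 ± 0.512 CPM (SD, n = 5) in thermoneutral BAT, was not called (-0.17 ± 0.34, adjusted p = 0.685), and Col4a6 was too low to be tested.

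Type I collagen, the most abundant protein of connective tissue, is built from chains of Col1a1 and Col1a2, and type III, its partner in distensible tissues, from Col3a1 alone. Col3a1 had 529, 385, 363, 339 and 206 CPM in thermoneutral BAT and 80.0, 151, 114, 46.1 and 41.0 CPM in cold BAT. The groups did not overlap, and the change was -2.05 ± 0.39 (adjusted p = 0.00115). Col1a2 had 180.1, 121, 119, 112 and 70.8 CPM and 33.1, 66.4, 48.2, 21.7 and 20.2 CPM, with no overlap and a change of -1.64 ± 0.36 (adjusted p = 0.00293). Col1a1 had 167, 104, 115, 112 and 58.5 CPM and 32.3, 67.9, 58.0, 22.4 and 19.5 CPM, and changed by -1.45 ± 0.40 (adjusted p = 0.00987). For Col1a1 the groups overlapped, because thermoneutral library 5, the lowest of its group for all 3 genes, lay among the cold libraries.

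Type V collagen sits inside type I fibrils and limits their diameter. Its α1 chain gene Col5a1 had 54.2, 43.9, 36.5, 41.9 and 25.2 CPM in thermoneutral and 13.0, 24.0, 16.7, 10.9 and 9.89 CPM in cold BAT, with no overlap, and fell by 1.41 ± 0.27 (adjusted p = 0.00102). Col5a2, for the α2 chain, had 43.3, 32.3, 26.7, 32.9 and 17.6 CPM and 15.3, 20.7, 16, 11.5 and 13.0 CPM, with overlap, and changed by -0.97 ± 0.23 (adjusted p = 0.00364). Col5a3, for the α3 chain, was at 73.1 ± 37.8 and 44.0 ± 11.2 CPM and was not called (-0.71 ± 0.33, adjusted p = 0.0849). Among the fibrillar genes known mainly from cartilage, Col11a2, a chain of type XI collagen, had 1.59, 2.72, 1.13, 1.77 and 3.16 CPM in thermoneutral and 1.42, 4.01, 7.62, 6.88 and 4.10 CPM in cold BAT and was called higher (1.24 ± 0.43, adjusted p = 0.0268), but the groups overlapped and the call was lost in 8 of 16 alternatives. Col27a1, also a cartilage collagen, stood much higher than Col11a2 per kb, at 8.14 ± 3.42 against 0.302 ± 0.122 CPM per kb in thermoneutral BAT, and was not called (-0.31 ± 0.26), and Col2a1, the main cartilage collagen, was at 0 in every cold BAT library.

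**Figure D2:**
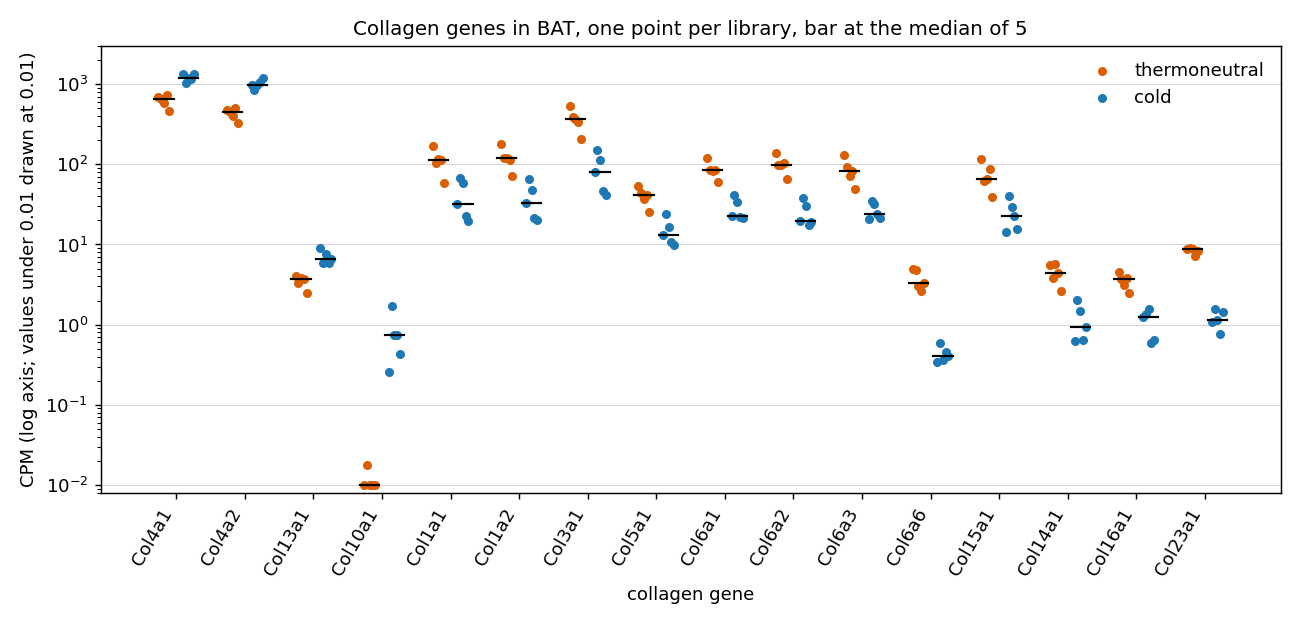
Level in CPM (log axis) of 16 collagen genes in each of the 5 thermoneutral and 5 cold BAT libraries; points are libraries, bars are group medians and values under 0.01 are drawn at 0.01. Col4a1, Col4a2 and Col13a1 lie higher in cold without overlap, while Col3a1, Col1a2, the type VI genes and Col23a1 lie lower without overlap.

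Type VI collagen is assembled from the products of Col6a1, Col6a2 and usually Col6a3. Col6a1 had 119, 84.7, 82.7, 86.0 and 59.9 CPM in thermoneutral and 22.4, 41.3, 34.2, 22.1 and 21.3 CPM in cold BAT, a change of -1.59 ± 0.23 (adjusted p = 0.000151). Col6a2 had 139, 99.0, 98.2, 103 and 65.5 CPM and 19.4, 37.9, 30.2, 17.5 and 19.2 CPM, a change of -2.0 ± 0.26 (adjusted p = 7.26e-05). Col6a3, whose product releases the fragment endotrophin, had 129.6, 93.3, 71.5, 83.8 and 48.9 CPM and 20.6, 34.8, 32.1, 24.1 and 21.4 CPM, a change of -1.66 ± 0.25 (adjusted p = 0.000236). Col6a6, for a chain that can take the place of that of Col6a3, fell most of the collagen genes called lower in BAT, from 4.96, 4.84, 3.08, 2.64 and 3.34 CPM to 0.342, 0.586, 0.365, 0.45 and 0.403 CPM (-3.11 ± 0.25, adjusted p = 1.08e-06). None of these 4 genes had overlapping groups, and their fall spanned a range from that of Col6a1 to that of Col6a6. The ratio of Col6a1 to Col6a2 counts, whose genes lie side by side on chromosome 10, was 0.862 ± 0.0314 in thermoneutral BAT, from 0.836 to 0.915, and 1.15 ± 0.0679 in cold BAT, from 1.09 to 1.26. In iWAT it was 0.934 ± 0.0256, from 0.899 to 0.965, and 1.28 ± 0.0627, from 1.21 to 1.34, so the ranges did not overlap in either tissue.

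The multiplexins Col15a1 and Col18a1 encode collagens that carry heparan or chondroitin sulfate chains and lie at the border between basement membrane and fibres. Col15a1 had 118, 62.8, 65.4, 88.2 and 39.5 CPM in thermoneutral and 14.4, 39.9, 29.0, 22.9 and 15.5 CPM in cold BAT and changed by -1.60 ± 0.35 (adjusted p = 0.00297), with overlapping groups. Col18a1, the source of endostatin, had 37.8, 26.7, 33.8, 45.7 and 24.2 CPM and 22.5, 40.6, 37.7, 26.4 and 21.4 CPM and was not called (-0.15 ± 0.23, adjusted p = 0.577). The FACIT collagens decorate the surface of fibrils. Col14a1 had 5.62, 3.87, 5.76, 4.35 and 2.64 CPM and 0.632, 2.04, 1.46, 0.635 and 0.94 CPM and fell without overlap by 1.93 ± 0.35 (adjusted p = 0.000519). Col16a1 had 4.5, 3.68, 3.14, 3.87 and 2.46 CPM and 1.25, 1.36, 1.57, 0.582 and 0.649 CPM, a change of -1.67 ± 0.29 (adjusted p = 0.000409), also without overlap. Col20a1, a little-studied FACIT gene, had 2.21, 2.83, 2.16, 1.58 and 1.78 CPM and 0.53, 0.54, 1.10, 1.43 and 1.10 CPM, a change of -1.15 ± 0.30 (adjusted p = 0.00558). Col12a1, a FACIT gene known from tendon and muscle sheaths, was not called at 25.0 ± 7.88 and 16.4 ± 4.79 CPM (-0.58 ± 0.24, adjusted p = 0.0593).

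Transmembrane collagens stay anchored in the cell membrane, and their extracellular helix can be shed. Col23a1 had 8.84, 8.96, 8.77, 7.14 and 8.41 CPM in thermoneutral and 1.08, 1.57, 1.14, 0.768 and 1.43 CPM in cold BAT, a change of -2.78 ± 0.18 without overlap (adjusted p = 2.66e-07). Col13a1, known from neuromuscular junctions, moved the other way, from 4.01, 3.34, 3.87, 3.68 and 2.51 CPM to 9.09, 5.82, 7.64, 5.82 and 6.65 CPM (1.04 ± 0.17, adjusted p = 0.000235), again without overlap. Col17a1, the collagen of skin hemidesmosomes, was low at 0.227, 0.265, 0.244, 0.346 and 0.301 CPM and 0.0854, 0.0235, 0.0685, 0.0265 and 0.224 CPM and was called lower (-1.60 ± 0.48, adjusted p = 0.0132). It passed the filter only through its thermoneutral libraries, so a call other than lower was hardly possible. The keratin and cadherin list of 7 epithelial markers summed to 0.46 to 1.71 CPM in thermoneutral and 0.0794 to 0.291 CPM in cold BAT, and Epcam, Krt14, Krt5 and Krt8 were at 0 in every cold library. Col28a1, a collagen known from around peripheral nerve, had 9.85, 5.41, 5.10, 4.91 and 7.63 CPM and 5.19, 3.0, 3.17, 2.65 and 2.64 CPM and was called lower with overlapping groups (-0.95 ± 0.25, adjusted p = 0.00601). Of 8 Schwann cell markers, 5 were called lower and 1, S100b, higher, while 30.0% of all genes were lower, and their sums of 130.2 to 202 CPM in thermoneutral and 109 to 178 CPM in cold BAT overlapped. Their part in the result was not tested.

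Col10a1, known as the collagen of hypertrophic cartilage, had 1 count in the 5 thermoneutral BAT libraries together and 168 in the 5 cold ones. Its levels were 0.256, 1.71, 0.753, 0.741 and 0.425 CPM in cold and 0, 0.0177, 0, 0 and 0 CPM in thermoneutral libraries. It was called higher (adjusted p = 2.3e-05, edgeR's quasi-likelihood test). Col10a1 passed the low-count filter in BAT only through its cold libraries, so it could enter the test only as a rise. The call adds no support beyond the counts themselves. The ratio of the depth-scaled counts was 189.6 with an exact interval at 95% confidence of 33.6 to 7533, which covers counting error only. In iWAT, where the gene was too low to be tested, it had 1 count in thermoneutral and 99 in cold libraries. It had 0 and 4 counts in eWAT and 0 in liver. Col10a1 lies within Nt5dc1 on the opposite strand, and the kit does not keep strand, so reads of both cannot be told apart where they overlap. Nt5dc1 itself was at 18.4 CPM in thermoneutral and 28.3 CPM in cold BAT (0.65 ± 0.12, adjusted p = 0.000611). The cartilage markers summed to 1.21 to 2.59 CPM in thermoneutral and 0.958 to 2.56 CPM in cold BAT, and Matn3 was at 0 in both. Col8a1, a hexagonal network gene of vessels and the cornea, and Col7a1, for the anchoring fibrils of skin, were not called in BAT (0.33 ± 0.15 and 0.26 ± 0.33).

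All collagen genes together made 2364 ± 489 CPM (SD, n = 5) in thermoneutral BAT, from 1610.0 to 2899, and 2747 ± 132 CPM in cold BAT, from 2596 to 2923 CPM, and these ranges overlapped. On library totals without composition scaling the cold sum was 2209 CPM. The TMM factors of BAT ran from 0.756 to 0.835 in thermoneutral and from 0.751 to 0.866 in cold libraries. Both sums are thus lower on library totals, and 2209 CPM is not to be set against the scaled thermoneutral sum. Type IV genes took 45.4 ± 3.36% of the summed collagen counts in thermoneutral and 81.3 ± 5.52% in cold BAT. Their ranges of 40.3 to 49.3 and 73.1 to 87.0 do not overlap. The fibrillar share was 35.6 ± 2.23% and 12.0 ± 3.71%, and the beaded filament share 11.6 ± 1.21% and 2.94 ± 0.986%. The ratio of Col4a1 to Col3a1 counts was 1.80 ± 0.396, from 1.29 to 2.25, in thermoneutral and 18.6 ± 10.8, from 6.86 to 33.1, in cold BAT. Per kb of exon, thermoneutral BAT was led by Col4a1 at 83.5 ± 13.7, Col4a2 at 65.1 ± 10.6 and Col3a1 at 37.1 ± 11.8 CPM per kb, and cold BAT by the same genes at 164 ± 18.2, 152 ± 18.1 and 8.81 ± 4.74 CPM per kb.

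**Figure D3:**
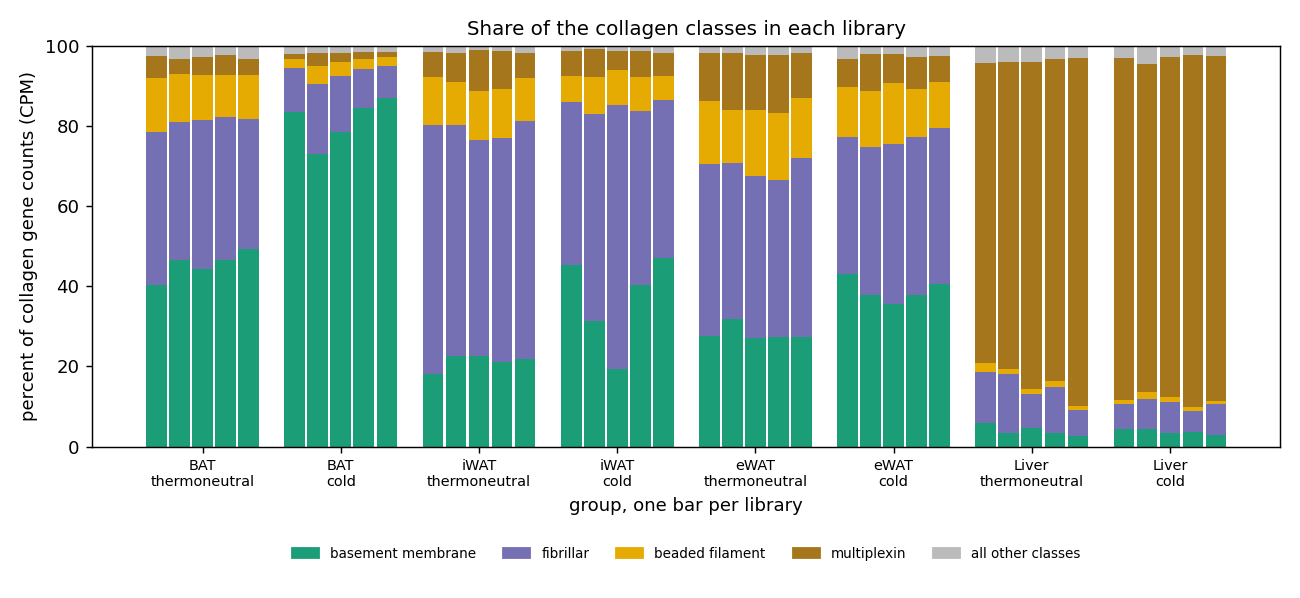
Share of the summed collagen counts (CPM, percent) taken by the main collagen classes in each of the 40 libraries, with bars stacked to the whole and grouped by tissue and exposure. In BAT the type IV part goes from a mean of 45.4 ± 3.36% to 81.3 ± 5.52%, and in liver the multiplexin part is the main one in both exposures.

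Markers of the cell types that make these collagens were measured in the same BAT libraries. Over all genes tested there, 30.2% were called higher and 30.0% lower, the shares to set beside the counts below. Of 12 fibroblast and adipose progenitor markers, 2 were called higher and 6 lower, and their sum was 242 to 473 CPM in thermoneutral and 250.3 to 378 CPM in cold BAT, so the sums overlapped. Of 12 endothelial markers, 4 were higher and 7 lower, with sums of 1208 to 1321 and 1058 to 1411 CPM, which also overlapped. Of 10 mural cell markers, 3 were higher and 4 lower, and their sums of 718 to 894 CPM in thermoneutral and 434 to 512 CPM in cold BAT did not overlap. The adipocyte list had 3 of 10 higher and 4 lower, with sums of 12143 to 14461 and 14183 to 17544 CPM. Lymphocyte markers had 6 of 11 lower, with sums of 15.9 to 41.2 and 5.74 to 24.4 CPM, and none of 7 macrophage markers was called, with sums of 134 to 195 and 55.1 to 347 CPM. All 5 tested hepatocyte markers were lower, with sums of 1.51 to 62.2 and 0.649 to 5.31 CPM, and mesothelial markers summed to 3.59 to 5.12 and 1.14 to 4.61 CPM, with Upk1b and Wt1 at 0. Skeletal muscle markers summed to 161 to 4921 and 6.38 to 3563 CPM, with none of 9 called. The part of these cells in the collagen changes was not tested.

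Making collagen needs enzymes and chaperones of the endoplasmic reticulum, then proteases and cross-linking enzymes outside the cell. In BAT, of 26 tested genes of synthesis and secretion, 9 were higher and 9 lower, against 30.2% and 30.0% of all genes. Creb3l1, a transcription factor of collagen secretion, fell (-1.77 ± 0.14, adjusted p = 7.76e-07), while P4ha2, a prolyl hydroxylase subunit, and Ppib, a prolyl isomerase, rose (1.13 ± 0.13 and 0.74 ± 0.06). Of 15 genes of propeptide processing and cross-linking, 2 were higher and 5 lower. Loxl1, a lysyl oxidase that acts on elastic fibres, rose (2.95 ± 0.20), while Pxdn, which cross-links type IV collagen, and Bmp1, which removes the C-propeptide of fibrillar collagens, fell (-0.91 ± 0.09 and -0.68 ± 0.13). Of 19 fibril-associated matrix proteins, 1 was higher and 12 lower. The 1 higher was Eln, for elastin (2.13 ± 0.22), and among the lower were the fibril-binding proteoglycans Fmod and Aspn (-2.67 ± 0.36 and -1.03 ± 0.10).

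Laminins, nidogens and proteoglycans are the partners of type IV collagen in the basement membrane. Of 20 such genes tested in BAT, 4 were higher and 10 lower, against 30.2% and 30.0% of all genes. The laminin chain Lamb3 and nephronectin (Npnt) rose (2.94 ± 0.14 and 1.84 ± 0.19), and the laminin chain Lamb2 and the calcium-binding Smoc2 fell (-0.98 ± 0.09 and -2.15 ± 0.10). Of 13 collagen receptors, 2 were higher and 8 lower. Itga1, of the integrin that binds type IV collagen, and Antxr2, which takes up type VI, fell (-0.87 ± 0.09 and -0.74 ± 0.11), and Adgrg1, a receptor for type III, rose (0.79 ± 0.11). Of 24 genes of TGF-β and fibrogenic signalling, 8 were higher and 7 lower. The signal transducer Smad3 and the co-receptor Eng rose (2.01 ± 0.13 and 1.52 ± 0.10), and the receptor Tgfbr2 and the ligand Pdgfd fell (-1.34 ± 0.13 and -1.5 ± 0.07).

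In iWAT 3 of 37 collagen genes tested were called, 1 higher and 2 lower, while 11.5% of 16771 genes were called. The groups did not overlap for 2 collagen genes, against 11.8% of all genes. Col23a1 had 4.45, 5.43, 5.19, 6.20 and 5.58 CPM in thermoneutral and 3.98, 2.78, 3.08, 3.50 and 3.26 CPM in cold iWAT, with no overlap, and fell by 0.73 ± 0.14 (adjusted p = 0.0114, edgeR's quasi-likelihood test). Col20a1 had 1.34, 1.35, 1.56, 1.17 and 1.41 CPM and 0.936, 0.443, 0.826, 0.978 and 0.758 CPM, with no overlap, and changed by -0.84 ± 0.23 (adjusted p = 0.0456). That call was lost in 12 of 17 alternatives, and Col20a1 overlaps another annotated gene, so reads of both cannot be told apart. Col28a1 had 2.27, 2.44, 2.23, 3.02 and 4.40 CPM and 5.85, 3.66, 8.26, 7.35 and 7.79 CPM and was called higher with overlapping groups (1.15 ± 0.27, adjusted p = 0.0231), the opposite of its direction in BAT. Without the libraries with high muscle markers, iWAT had 0 collagen genes called higher and 1 lower, where 536 and 183 of all genes were. Without cold library 3 it had 9 lower, a count whose share over all genes is not given here.

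The abundant collagens of iWAT varied widely between libraries. Col3a1, the leading collagen gene of thermoneutral iWAT per kb at 196 ± 38.1 CPM per kb, had 1981, 1879, 1978, 2423 and 1373 CPM in thermoneutral and 788, 1385, 3206, 471 and 392 CPM in cold iWAT. Cold library 3 held the highest value by far, and the change was not called (-0.67 ± 0.52, adjusted p = 0.414). Col1a1 had 637, 602, 631, 837 and 449.8 CPM and 238, 438, 1657, 124 and 95.5 CPM, and was not called (-0.35 ± 0.69, adjusted p = 0.759). Col4a1 had 727, 971, 1133, 1288 and 683 CPM and 1359, 1157, 1413, 629.8 and 656 CPM, with overlap and no call (0.09 ± 0.28, adjusted p = 0.855). Col4a2 had 412, 526, 626, 710.0 and 369 CPM and 744, 654, 798, 382 and 402 CPM (0.14 ± 0.26, adjusted p = 0.738), so neither main type IV chain was called in iWAT. Col1a2 had 713, 659, 649, 943 and 551 CPM and 321, 493, 1642, 141 and 139 CPM (-0.40 ± 0.62, adjusted p = 0.687). Col6a1 had 216, 229, 299.7, 366 and 168 CPM and 128, 213, 387, 85.9 and 53.1 CPM (-0.60 ± 0.47, adjusted p = 0.418). For these fibrillar and type VI genes too, cold library 3 was the highest of its group. Col15a1 had 294, 350.2, 622, 700.5 and 218 CPM and 194, 301, 351, 106 and 80.9 CPM (-1.11 ± 0.46, adjusted p = 0.14). Col5a3, whose type V chain is known from few tissues, had 284, 361, 565, 648 and 243 CPM and 301, 384, 532, 216 and 127 CPM (-0.46 ± 0.39, adjusted p = 0.448). The summed collagen level was 7059 ± 1757 CPM in thermoneutral and 5391 ± 3802 CPM in cold iWAT, where cold library 3 reached 11653 CPM. Type IV genes made 21.3 ± 1.84% of it in thermoneutral and 36.7 ± 11.5% in cold iWAT, with a cold range of 19.3 to 47.1. Cell markers differed in the same libraries. Of 10 adipocyte markers 4 were called higher, against 7.20% of all genes. The adipocyte sums of 15024 to 23018 CPM in thermoneutral and 33249 to 50229 CPM in cold iWAT did not overlap. Fibroblast markers, of which 0 of 12 were called and 3 had an unadjusted p under 0.05, summed to 1394 to 2518 and 730.4 to 2696 CPM. Endothelial and mural markers each had 1 called lower, Cldn5 and Rgs5, with overlapping sums. Their part in the collagen values was not tested.

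Around these collagens in iWAT, 1 of 26 genes of synthesis and secretion was higher and 3 were lower, against 7.20% and 4.29% of all genes. The collagen chaperone Serpinh1, Creb3l1 and Rcn3 fell (-1.76 ± 0.28, -1.27 ± 0.35 and -1.5 ± 0.42; adjusted p = 0.00599, 0.0418 and 0.0437), and Mia2, of the collagen export machinery, rose (0.33 ± 0.09). Among 21 basement membrane partners, the laminin chain Lama5 rose and Lama3 and Lamb3 fell (0.68 ± 0.17, -1.34 ± 0.24 and -0.94 ± 0.24). Matn2, a matrilin, was the 1 of 20 fibril-associated genes that fell, Adgrg1 the 1 of 13 receptors that rose, and 4 of 24 genes of fibrogenic signalling rose, Eng, Tgfbr1, Pdgfb and Ccn2. None of the 15 processing genes was called, with 2 at an unadjusted p under 0.05.

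In eWAT 1 of 39 collagen genes tested was called, while 3.78% of 19123 genes were called, and 14 of the 39 had an unadjusted p under 0.05, as did 19.1% of all genes. The groups did not overlap for 2 of them, Col15a1 and Col18a1, against 7.57% of all genes. Col15a1 had 656, 569, 547, 656 and 420.0 CPM in thermoneutral and 99.1, 370.3, 224, 145 and 129 CPM in cold eWAT and fell by 1.58 ± 0.34 (adjusted p = 0.0354, edgeR's quasi-likelihood test). The call was lost in 13 of 18 alternatives, including that without cold libraries 1 and 4, which had high epididymis markers. An annotated antisense gene shares exon sequence with Col15a1, and reads of both cannot be told apart. Col18a1 had 201, 199.7, 190.1, 191 and 187 CPM and 155, 177, 174, 101 and 134 CPM and was not called (-0.40 ± 0.15, adjusted p = 0.176). Col12a1 had the opposite sign, at 5.38, 7.42, 4.91, 6.59 and 4.11 CPM and 17.7, 19.2, 6.86, 8.89 and 11.7 CPM, and was not called (1.17 ± 0.30, adjusted p = 0.0599). Col4a1, the leading gene of thermoneutral eWAT per kb of exon union at 129 ± 16.3 CPM per kb but behind Col3a1 per kb of the longest transcript, had 1119.9, 1057, 834, 912 and 884 CPM and 921, 1299, 1089.8, 691 and 959 CPM (0.03 ± 0.17, adjusted p = 0.954). Col3a1 had 1230.4, 889, 859.9, 898 and 1035 CPM and 451, 849, 900.0, 465 and 656 CPM and was not called either (-0.58 ± 0.22, adjusted p = 0.185). Col4a2 had 785, 626, 555, 597 and 523 CPM and 591, 856, 776, 439 and 604 CPM (0.07 ± 0.19, adjusted p = 0.902), so the main type IV chains overlapped between exposures. Col1a1 had 389, 177, 241, 262 and 316 CPM and 197, 273, 283, 161 and 239 CPM (-0.29 ± 0.23, adjusted p = 0.599). Col6a1 had 382, 259, 305, 328 and 242 CPM and 162, 339.6, 266, 137 and 148 CPM (-0.54 ± 0.27, adjusted p = 0.324). Neither the type I nor the type VI chain passed the test. The summed level was 5836 ± 755 CPM in thermoneutral and 4411 ± 1181 CPM in cold eWAT. Its type IV share was 28.2 ± 1.97% and 39.0 ± 2.92%.

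Over all genes tested in eWAT, 1.77% were called higher and 2.00% lower. Serpinh1 fell (-0.92 ± 0.13, adjusted p = 0.00978), the 1 of 26 synthesis genes called. The cross-linking enzyme Lox rose (1.32 ± 0.21, adjusted p = 0.0134), the 1 of 17 processing genes called. Eln and Thbs2, for a matricellular thrombospondin, rose among 20 fibril-associated genes (1.23 ± 0.17 and 2.31 ± 0.46). Nid2, a link between laminin and type IV collagen, fell among 23 basement membrane partners (-1.23 ± 0.25). Ccn2 rose and Tgfb1 fell among 24 signalling genes, and none of 13 receptors was called, with 5 at an unadjusted p under 0.05. Of the marker lists in eWAT, lymphocyte markers had 1 of 12 called lower, Ighm, with 9 at an unadjusted p under 0.05, and their sums of 237 to 441 CPM in thermoneutral and 62.1 to 200.2 CPM in cold libraries did not overlap. Mural markers had 1 of 10 lower, with sums of 626 to 781 and 508 to 2828 CPM, and hepatic stellate markers 1 of 8 lower. Fibroblast markers had 1 of 12 higher, with sums of 1101 to 1472 and 1049 to 1568 CPM, and endothelial markers 1 of 12 higher, with sums of 628 to 868 and 798 to 961 CPM. Adipocyte markers had 1 of 10 higher and muscle markers 1 of 5 higher. None of the epididymis, Schwann, macrophage, mesothelial, epithelial, hepatocyte and cartilage markers was called. An unadjusted p under 0.05 was held by 2 of 3 tested epididymis markers, whose median change was 5.81. It was held by 3 of 8 macrophage, 2 of 8 Schwann and 1 of 6 epithelial markers, and by 19.1% of all genes. Their part in the collagen values was not tested.

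In liver 1 of 28 collagen genes tested was called, while 1.66% of 14472 genes were called, and 12 of the 28 had an unadjusted p under 0.05, as did 24.9% of all genes. The groups did not overlap for 3, Col20a1, Col3a1 and Col5a1, against 5.15% of all genes. Col20a1 had 1.95, 1.06, 1.66, 1.95 and 0.814 CPM in thermoneutral and 0.597, 0.506, 0.261, 0.482 and 0.573 CPM in cold liver and was called lower (-1.52 ± 0.33, adjusted p = 0.0456, edgeR's quasi-likelihood test). It was lost in 12 of 17 alternatives. Col18a1, which hepatocytes are known to express, was the main collagen transcript of liver at 1651, 1601, 1849.8, 1895 and 1854 CPM in thermoneutral and 1446, 1188, 972, 1567 and 1969 CPM in cold liver, and was not called (-0.23 ± 0.18, adjusted p = 0.449). Col3a1 had 82.5, 33.3, 36.5, 41.4 and 27.0 CPM and 6.53, 24.1, 11.1, 11.7 and 25.4 CPM (-1.40 ± 0.40, adjusted p = 0.0798). Every cold library was below every thermoneutral library for Col3a1, yet its change did not pass the threshold. Col5a3 had 71.8, 149, 71.0, 101 and 51.7 CPM and 49.0, 35.6, 25.1, 24.6 and 83.3 CPM (-0.95 ± 0.36, adjusted p = 0.14), and Col4a1 had 76.3, 41.0, 57.5, 42.7 and 31.4 CPM and 42.8, 36.8, 19.4, 36.1 and 32.9 CPM (-0.48 ± 0.24, adjusted p = 0.238). Neither was called. Col5a1 had a change of -0.90 ± 0.26 (adjusted p = 0.0788) and Col14a1 of -0.71 ± 0.19 (adjusted p = 0.0673). Without cold library 5, 6 collagen genes were called lower, a count whose share over all genes is not given here. The adipocyte marker sum of cold library 5, 5024 CPM, was the highest of cold liver but within the thermoneutral range of 2504 to 6371 CPM. Nearly all of this sum was Car3, at 1258 of 1306 CPM in cold and 4276 of 4332 CPM in thermoneutral liver on average. Cold library 5 is also outside the run of library numbers.

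Stellate cells are the liver cells known for fibrillar collagen. Hepatic stellate markers summed to 296 to 435 CPM in thermoneutral and 149 to 322 CPM in cold liver, and endothelial markers to 135 to 308 and 67.5 to 175 CPM. None of the 8 stellate or 12 endothelial markers was called, with 6 and 3 at an unadjusted p under 0.05. Macrophage markers summed to 143 to 370.5 and 72.7 to 196 CPM and lymphocyte markers to 37.7 to 214 and 4.08 to 21.9 CPM, with 1 of 10 lymphocyte markers called lower. Their part in the collagen values was not tested. Of the pathway lists in liver, where 1.01% of all genes were called higher and 0.650% lower, Bmp1 and Npnt rose (0.56 ± 0.13 and 1.97 ± 0.43), and Lama1, a laminin chain, and Pdgfa, a ligand of fibroblast growth, fell (-1.36 ± 0.28 and -0.85 ± 0.18). None of the 26 synthesis genes, 17 fibril-associated genes and 11 receptors was called, with 5, 6 and 3 at an unadjusted p under 0.05.

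**Figure D4:**
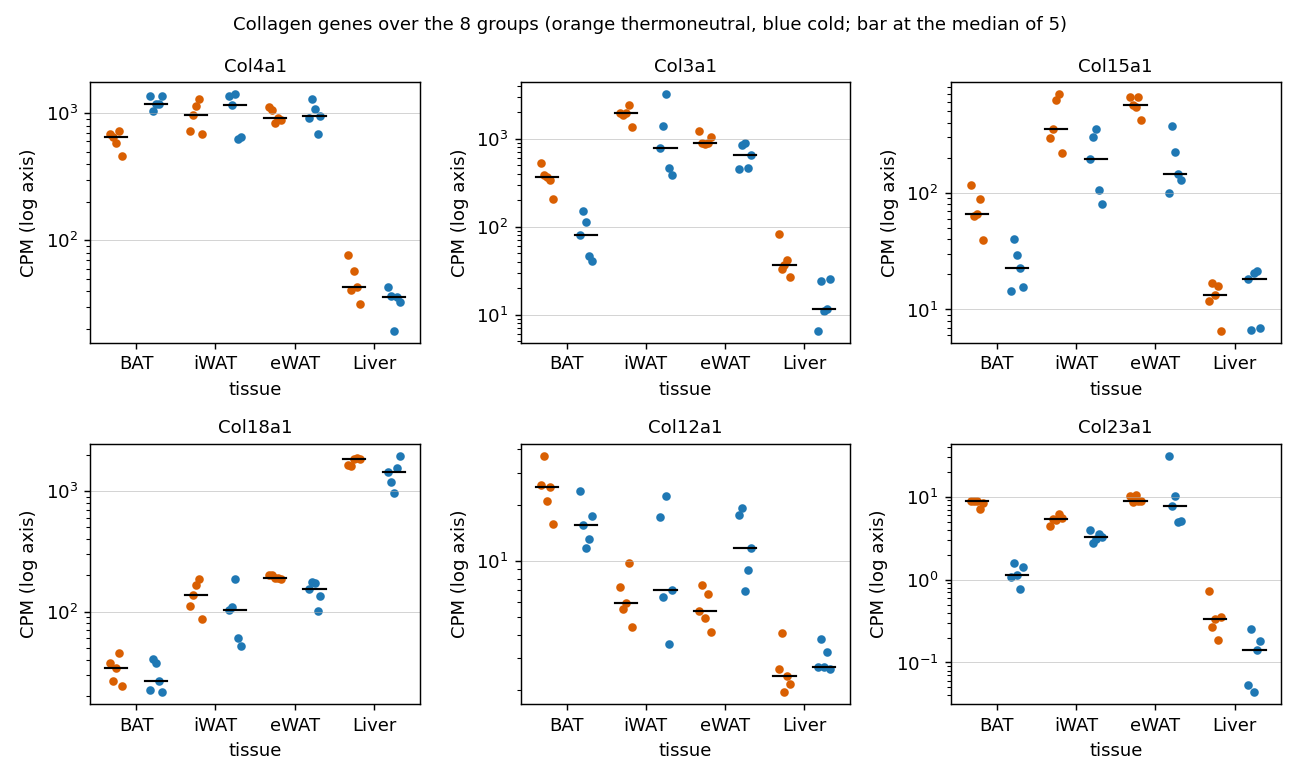
Level in CPM (log axis) of Col4a1, Col3a1, Col15a1, Col18a1, Col12a1 and Col23a1 in all 8 groups, with 1 point per library and a bar at each group median. Col4a1 is higher in cold than in thermoneutral BAT without overlap, and Col18a1 is far higher in liver than in any adipose group.

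Whether the effect of cold differed between tissues was tested as an interaction in a model of all 8 groups, which tested 42 collagen genes. The cold effect on Col4a2 was smaller in iWAT than in BAT by 1.06 ± 0.30 (adjusted p = 0.0111, edgeR's quasi-likelihood test) and smaller in eWAT than in BAT by 1.15 ± 0.30 (adjusted p = 0.00452). For Col4a1 it was smaller in eWAT than in BAT by 0.93 ± 0.33 (adjusted p = 0.0371), and the difference between iWAT and BAT was not called (-0.85 ± 0.33, adjusted p = 0.066). The fall of Col23a1 was deeper in BAT than in iWAT (2.12 ± 0.50, adjusted p = 0.00222). Its cold effect also differed between eWAT and BAT (3.14 ± 0.50, adjusted p = 1.4e-05). In eWAT Col23a1 had 10.3, 8.57, 10.47, 8.94 and 8.79 CPM in thermoneutral and 31.3, 7.69, 10.1, 4.92 and 5.04 CPM in cold libraries and was not called (0.34 ± 0.50, adjusted p = 0.811). Cold library 1, which had high epididymis markers, was the highest of them, and without it the difference from BAT was 2.36. Col28a1 differed between iWAT and BAT (2.18 ± 0.56, adjusted p = 0.00514) and had opposite signs in them. Col12a1 had a higher cold effect in iWAT (1.39 ± 0.48, adjusted p = 0.0385) and in eWAT (1.79 ± 0.48, adjusted p = 0.00577) than in BAT. Col6a2 and Col16a1 had a higher effect in eWAT than in BAT (1.41 ± 0.50 and 1.48 ± 0.55, adjusted p = 0.0379 and 0.0473). Of 46 alternatives, the call was lost in 30 for Col16a1, in 12 for Col6a2, in 11 for Col4a1 against eWAT and in 15 for Col12a1 against iWAT. For Col1a1, Col1a2, Col3a1, Col6a1 and Col6a3, which fell in BAT, the cold effect was not called different between BAT and either white depot. In simulated data the test of iWAT against BAT recovered 30.9% of 2-fold differences, so equal effects are not shown.

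In all, 4 of 42 collagen genes differed in cold effect between iWAT and BAT, 3 higher and 1 lower in iWAT, where 18.9% of all 20756 genes did, 10.6% higher and 8.27% lower. Between eWAT and BAT 6 of 42 differed, 4 higher and 2 lower in eWAT, where 23.0% of all genes did, 11.5% in each direction. Both comparisons share the BAT libraries. Between eWAT and iWAT 0 collagen genes differed by edgeR's quasi-likelihood test, with 2 at an unadjusted p under 0.05 (9.65% of all genes) and 1 called by limma-voom, while 0.159% of all genes differed, 0.0434% higher and 0.116% lower in eWAT. Between liver and the mean of the 3 adipose tissues 4 genes differed, 1 higher and 3 lower in liver, while 11.8% of all genes did, 3.39% higher and 8.37% lower. Col15a1 had a higher cold effect in liver (1.61 ± 0.48, adjusted p = 0.0237). Col4a1, Col4a2 and Col8a1 had a lower one (-0.95 ± 0.27, -1.01 ± 0.25 and -1.07 ± 0.29; adjusted p = 0.0176, 0.00593 and 0.0122). Col8a1, for a network collagen of vessels, was called in no single tissue's cold comparison.

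The tissues were also compared at thermoneutrality. The highest mean level lay in eWAT for 21 of the 44 genes, in iWAT for 10, in BAT for 8 and in liver for 5. These counts rest on the composition scaling, and the shares over all genes are not given here. They include genes near the floor, such as Col10a1, placed in BAT on 1 count, and Col9a1, Col9a2 and Col19a1. A mean of at least 1 CPM was reached by 31 genes in eWAT, 30 in iWAT, 28 in BAT and 21 in liver. Of 42 genes tested, 5 were higher and 20 lower in BAT than in iWAT, while 47.3% of all genes differed, 22.6% higher and 24.7% lower. Against eWAT, 5 were higher in BAT and 27 lower, while 61.9% of all genes differed, 23.5% higher and 38.4% lower. The filter of this model ran over all 8 groups, whereas 30 collagen genes passed it on the BAT libraries alone. A gene low in BAT could thus enter through another tissue and could hardly be called other than lower in BAT. Such genes are among those called lower, and the same limit holds for every contrast between tissues. On library totals, without composition scaling, the all-gene median of BAT against iWAT moved from -0.08 to -0.90 and that against eWAT from -0.23 to -1.17, and the collagen counts were then 2 higher and 28 lower, and 3 higher and 32 lower.

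**Figure D5:**
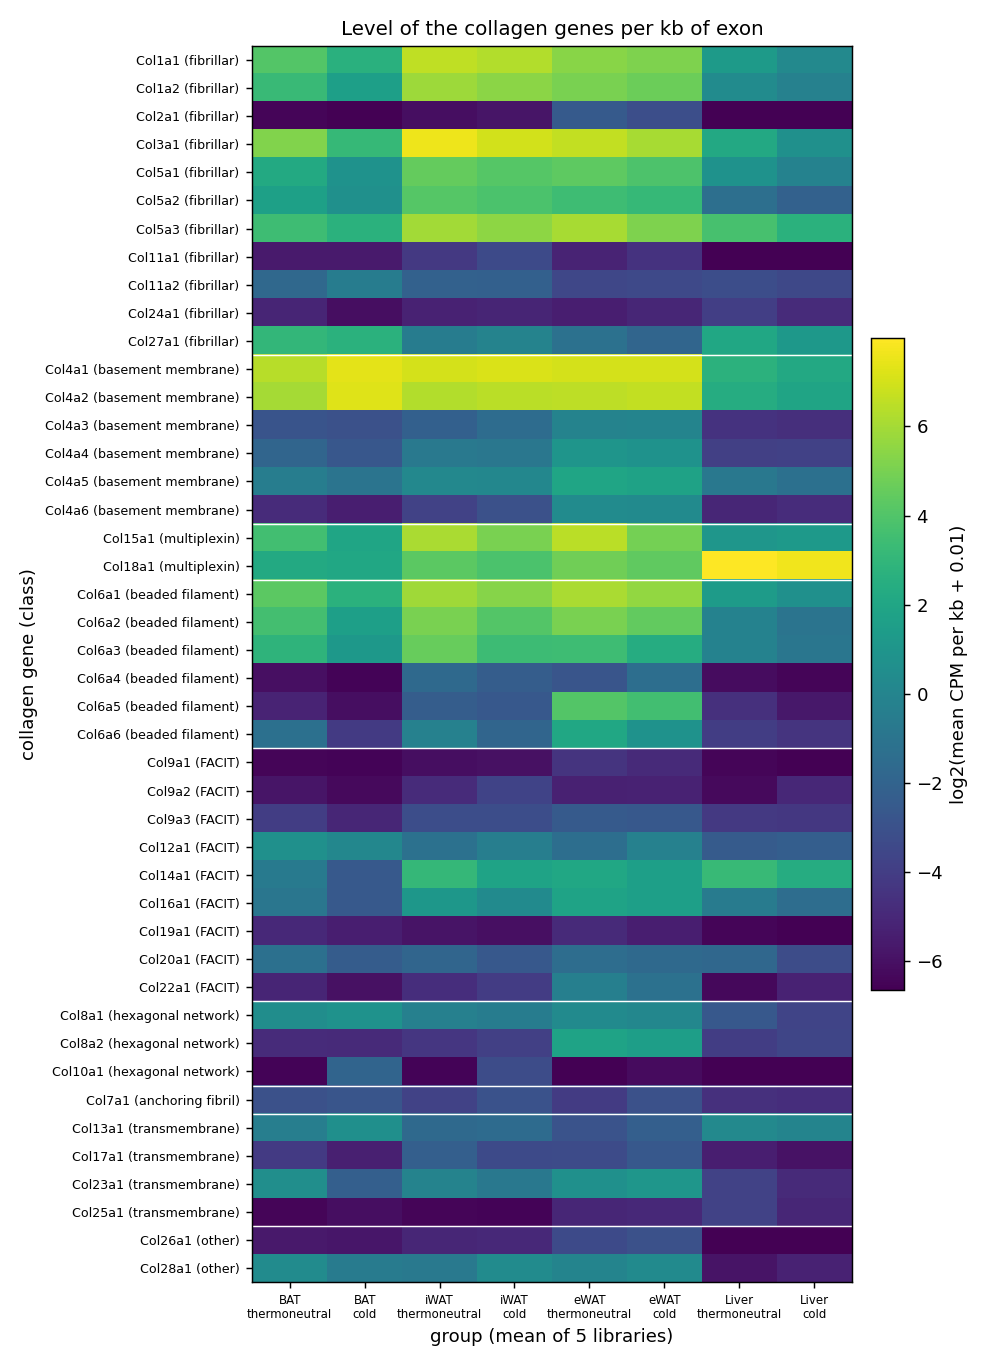
Mean level of the 44 collagen genes (rows) in the 8 groups (columns) as log2 of CPM per kb of exon plus 0.01, over 5 libraries per group. Type IV, I, III and VI genes are high in the adipose groups, and Col18a1 leads the liver groups.

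Collagens higher in BAT than in both white depots were few. Col27a1 had 60.2, 79.1, 108, 177 and 105 CPM in thermoneutral BAT, 7.0 to 12.1 CPM in iWAT and 3.04 to 6.84 CPM in eWAT (3.57 ± 0.39 against iWAT, adjusted p = 2.22e-09; 4.26 ± 0.40 against eWAT, adjusted p = 5.23e-11; edgeR's quasi-likelihood test). Col12a1 had 25.8, 37.1, 21.0, 25.2 and 15.7 CPM in BAT, 4.40 to 9.72 CPM in iWAT and 4.11 to 7.42 CPM in eWAT (1.93 ± 0.35 and 2.13 ± 0.35). Col13a1 had 4.01, 3.34, 3.87, 3.68 and 2.51 CPM in BAT, 0.951 to 1.93 CPM in iWAT and 0.443 to 0.847 CPM in eWAT (1.31 ± 0.32 and 2.59 ± 0.34). On library totals Col27a1 and Col12a1 stayed called higher in BAT than in both white depots, while Col13a1 was lost against iWAT (0.51, adjusted p = 0.187) and kept against eWAT. Col28a1 and Col8a1 were also higher in BAT than in iWAT (1.2 ± 0.40 and 0.78 ± 0.23), but on library totals Col28a1 was lost (0.36, adjusted p = 0.434) and Col8a1 turned its direction, at -0.03. Col11a2 and Col7a1 were also higher in BAT than in eWAT (1.95 ± 0.50 and 1.23 ± 0.48), and both were lost on library totals (adjusted p = 0.0717 and 0.591). Downwards, BAT had less Col14a1 (-3.75 ± 0.51) and Col1a2 (-2.54 ± 0.46) than iWAT, and less Col6a5, for an alternative type VI chain (-3.41 ± 0.57).

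The white depots differed from each other in 15 of 42 genes, 3 higher in iWAT and 12 lower, while 36.9% of all genes differed, 12.7% higher and 24.2% lower. Same-numbered libraries of these 2 groups deviated together, and with library number as a block 7 collagen genes were higher, as were 2608 of all genes. Col6a3, Col13a1 and Col11a2 were higher in iWAT (1.14 ± 0.39, 1.28 ± 0.33 and 1.5 ± 0.49). Col6a5, Col8a2 and Col4a6 were much lower in iWAT (-6.48 ± 0.52, -6.48 ± 0.58 and -4.32 ± 0.52). Col6a5 had 173, 88.2, 159.7, 169 and 195 CPM in thermoneutral eWAT and 2.14, 0.853, 1.57, 1.96 and 2.24 CPM in iWAT. Col8a2, a hexagonal network gene, had 17.6, 2.25, 15.3, 31.2 and 13.2 CPM in eWAT and 0.169, 0.206, 0.119, 0.245 and 0.146 CPM in iWAT. Col4a6, for the α6 chain of type IV, had 10.7, 7.14, 10.3, 10.1 and 13.7 CPM in eWAT and 0.612, 0.486, 0.476, 0.408 and 0.608 CPM in iWAT. For all 3 genes no library of one depot reached the range of the other. Col2a1 and Col22a1, genes of cartilage and of tissue junctions, were uneven in eWAT, at 0.161, 4.06, 2.92, 0.442 and 0.0765 CPM and 0.198, 14.6, 20.6, 0.847 and 0.459 CPM. The mesothelial markers summed to 129.8 to 206 CPM in thermoneutral eWAT and 4.12 to 8.65 CPM in iWAT, and the cartilage markers to 20.6 to 59.7 and 1.58 to 3.90 CPM. Their part in these depot differences was not tested.

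Liver had 6 of 42 collagen genes higher than the mean of the 3 adipose tissues and 31 lower, while 71.0% of all genes differed, 32.4% higher and 38.6% lower. On library totals the all-gene median moved from -0.29 to -1.19, and 5 were higher and 35 lower. Col18a1 was higher by 4.20 ± 0.19 (adjusted p = 1.29e-20, edgeR's quasi-likelihood test). At 252 ± 19.1 CPM per kb it stood well above the next collagen genes of liver, Col5a3 at 13.0 ± 5.57 and Col14a1 at 9.25 ± 1.36 CPM per kb, and multiplexins made 80.1 ± 4.73% of the summed collagen counts. Col25a1, a transmembrane collagen known from brain and motor axons, had 1.35, 0.455, 0.254, 1.18 and 0.89 CPM in thermoneutral liver and 0 to 0.0413 CPM in BAT, 0 to 0.0589 CPM in iWAT and 0.135 to 0.463 CPM in eWAT. The liver range overlapped that of eWAT and lay above those of BAT and iWAT, and the difference from the mean of the adipose tissues was 4.09 ± 0.55 (adjusted p = 3.97e-08). The other genes higher in liver than that mean were Col13a1, Col24a1, Col14a1 and Col27a1 (1.95 ± 0.24, 1.80 ± 0.47, 1.71 ± 0.34 and 1.67 ± 0.27). Col27a1 was at 28.1 to 88.0 CPM in liver, and its highest mean lay in BAT, at 60.2 to 177 CPM. For Col14a1 liver overlapped iWAT (50.4 to 76.4 and 48.3 to 77.1 CPM). For Col13a1 it overlapped BAT (3.29 to 9.82 and 2.51 to 4.01 CPM), as it did for Col24a1 (0.178 to 0.729 and 0.0433 to 0.227 CPM). Type IV genes, at 4.01 ± 1.2% of liver collagen counts, were below their share in every adipose group. Col11a1, Col26a1 and Col10a1 were at 0 in every liver library, where 3 counts correspond to 0.0513 to 0.0846 CPM in a thermoneutral library, so lower levels were not detectable at this depth.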

How the data were processed

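RNA from 40 libraries was measured in 1 table with a line per gene and a column per library. Per the submitters' processing notes the tools were FastQC, STAR 2.7.8a, RSEM 1.3.0 and DESeq, with builds GRCm39 and GRCm38 named and no roles given. The values are expected counts, which the authors deposited as whole numbers and which were not normalized. Libraries were made with a kit that does not keep strand, per the labels' protocols.

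Of 53863 symbols, 78 stood on repeated lines (0.06 to 0.65% of counts) and were reduced to 1 value. All 44 collagen genes stood on 1 line each. Tests used edgeR 4.0.16 (R 4.3.3): filterByExpr with a minimum count of 10 and a minimum total of 15, TMM, a robust quasi-likelihood F-test and Benjamini-Hochberg adjustment over all genes tested. Each tissue was fitted on its 10 libraries, and a model of the 8 groups gave tissue differences and interactions. Levels per kb use the union of exons, and 50089 symbols matched GENCODE for GRCm38. Alternatives were RLE and library-total scaling, no filter, DESeq2 1.42.0, limma-voom (limma 3.58.1), a replicate block, leaving out libraries, and the longest transcript as length. Procedures were tested on simulated data.

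The collagen genes, their classes, and the 6 pathway and 14 marker lists were chosen with earlier results of these data known. Values in every library are given for genes called in a cold comparison, in the tissue where they were called, and for the most abundant genes per kb, and from each pathway list at most 4 called genes of smallest p are named per tissue. Intervals and floors cover counting error only. Between thermoneutral iWAT and eWAT every correlation of same-numbered libraries was above 0.1 (0.123 to 0.276). Between thermoneutral BAT and iWAT 4 were above 0.1, in a range of 0.0922 to 0.613. Over all pairs of tissues, 20 of 60 correlations were above 0.1. The labels do not say that equal numbers name 1 mouse, and the main model of 8 groups treats the libraries as independent.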

Additional observations from a re-analysis of the deposited data

Results flagged for a closer look

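Among 64 groups of 5 libraries examined, 4 held a library far from the rest of its group, and chance gives about 1 such group in 20. Col10a1 was at 0.0177 CPM in thermoneutral BAT library 2 and at 0 in the others, which is a single count. Col28a1 was at 5.19 CPM in cold BAT library 1 and at 2.64 to 3.17 CPM in the others. Col4a5 was at 2.39 CPM in cold BAT library 5 and at 3.34 to 3.62 CPM in the others. The summed collagen level was 7144 CPM in thermoneutral eWAT library 1 and 5383 to 5834 CPM in the others.

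The effect of cold differed between tissues, by edgeR's quasi-likelihood test of the interaction, for these collagen genes. Against BAT, iWAT had a higher log2 effect for Col12a1 by 1.39, Col23a1 by 2.12 and Col28a1 by 2.18, and a lower one for Col4a2 (-1.06). Against BAT, eWAT had a higher log2 effect for Col12a1 by 1.79, Col16a1 by 1.48, Col23a1 by 3.14 and Col6a2 by 1.41, and a lower one for Col4a1 (-0.93) and Col4a2 (-1.15). Against the mean of the adipose tissues, liver had a higher effect for Col15a1 by 1.61 and a lower one for Col4a1 (-0.95), Col4a2 (-1.01) and Col8a1 (-1.07).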

How the results depend on the processing

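In BAT the call of every collagen gene was kept in all 16 alternatives except those of Col11a2 and Col4a5, with 4 to 5 genes higher and 17 to 20 lower when 1 library was left out and 5 higher and 19 lower with the replicate block. Numbers did not pair cold with thermoneutral libraries (correlations -0.707 to 0.492, 6 of 20 above 0.1). In iWAT 0 genes were higher on library totals, with the replicate block or without the libraries with muscle markers (chosen after seeing the data). In these settings 912, 78 and 536 of all genes were higher, against 1207 in the main fit. Without the filter 2 were higher (808 of all genes). Lower was 1 without the filter (409 of all genes) or without the libraries with muscle markers (183). With the block 0 were lower (30), and 719 of all genes were lower in the main fit. In eWAT 1 was higher with DESeq2, where 1054 of all genes were, against 339 in the main fit. With DESeq2 4 were lower and with limma-voom 2 (1096 and 400 of all genes, against 383 in the main fit). Without the filter or with the replicate block 0 were lower (146 and 4 of all genes). The count was also 0 without the cold library outside the run of library numbers (120 of all genes). It was 0 too without the libraries with epididymis markers (52 of all genes, chosen after seeing the data). In liver 0 were lower on library totals, with limma-voom or with the block, where 11, 1 and 4 of all genes were lower. With DESeq2 5 were lower (835 of all genes), and without the libraries outside the run of numbers 2 (902 of all genes). In the main fit 94 of all genes were lower, so the collagen counts moved along with the number of calls over all genes.

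For interactions, iWAT against BAT had 2 lower with RLE, library totals, DESeq2, limma-voom and the replicate block. In that order 2051, 2307, 2346, 1775 and 1770 of all genes were lower, against 1716 in the main fit. For eWAT against BAT, 2 were higher and 1 lower on library totals and without the filter, and 8 were higher with DESeq2 and with the block. Of all genes 2034 and 2115 were higher on library totals and without the filter, and 2236 and 1935 lower. With DESeq2 and the block 2667 and 2451 were higher, and the main fit had 2377 higher and 2390 lower. Between eWAT and iWAT limma-voom called 1 lower (48 of all genes, against 24 in the main fit). For liver against adipose tissue it called 0 higher (450 of all genes, against 703 in the main fit). At thermoneutrality BAT had 2 genes higher than iWAT and 3 higher than eWAT on library totals, where Col8a1 reversed to -0.026. Of all genes 1328 and 1397 were higher there, against 4685 and 4886 in the main fit. For iWAT 7 were higher than in eWAT with DESeq2, limma-voom and the block. In that order 3265, 2782 and 2608 of all genes were higher, against 2642 in the main fit. The causes were not tested.

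Leaving out 1 library gave 0 to 2 higher and 1 to 9 lower in iWAT (9 without cold library 3), 0 to 1 and 0 to 2 in eWAT, and 0 to 6 lower in liver (6 without cold library 5, and 0 without any other library). Counts over all genes with 1 library left out are not given here, so these ranges show only how far the collagen counts move. Interactions gave 2 to 7 higher (7 without iWAT cold library 5) and 1 to 2 lower for iWAT against BAT, 2 to 8 (8 without iWAT cold library 3) and 1 to 2 for eWAT against BAT, 0 to 1 and 0 for eWAT against iWAT (1 without iWAT cold library 3), and 0 to 1 and 2 to 4 for liver. Thermoneutral iWAT against eWAT gave 2 to 7 higher and 11 to 14 lower. On library totals the summed collagen level was 2209 CPM in cold BAT, 9828 in thermoneutral iWAT, 8944 and 6721 in thermoneutral and cold eWAT, and 1418 and 1039.8 in liver. Only groups whose mean moved by more than its SD are listed, so thermoneutral BAT and cold iWAT are not. The type IV share per kb, which is not the share of counts given above, depended on the length used. In thermoneutral BAT it was 49.5% with the exon union and 42.5% with the longest transcript, and in cold BAT 83.7% and 79.9%. In thermoneutral iWAT it was 23.9% and 19.0%. With the longest transcript it was 25.2% and 35.5% in thermoneutral and cold eWAT. Depth limits the genes under about 1 CPM, where a few counts set the value.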
